A study of Mus musculus with 282 samples.

Results

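The hypothalamus lies directly above the pituitary gland, and 28 of 282 hypothalamus libraries carried growth hormone mRNA (Gh) at 500 FPKM or more, against 135 libraries with Gh below 10 FPKM. FPKM are fragments per kilobase of transcript, scaled for the number of mapped fragments, so levels of different genes are per length. These 28 libraries (the high class) were compared with the 135 others (the low class), and 119 libraries lay between the limits. The libraries were chosen by their measured Gh level, so its own values are a description with no test, and every other difference below is an association with the Gh level of the same libraries.

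Each library was an unstranded mRNA library of 1 male mouse fed a high fat diet, which the study also calls high in sugar, made from its undivided hypothalamus, and the mice belonged to 99 classical inbred and recombinant inbred strains of the Hybrid Mouse Diversity Panel (HMDP). All mice of both classes shared sex, diet and labelled tissue, differed by strain, and carried no allele or agent that the labels name. The age of the mice is not given in the sources used here. 1 mouse of the low class, whose labels name more than 1 strain, was left out of every comparison that uses strains. Hypothalamic peptides were present in every library, with a sum over 11 peptide genes such as Hcrt and Pmch of 622 FPKM or more. The Agrp row in this sum is a locus shared with Atp6v0d1, with a low class median of 118 FPKM. RNA of hypothalamic peptides was thus found in both classes.

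The anterior pituitary holds endocrine cells that each make 1 main hormone or hormone pair. Somatotrophs make growth hormone, lactotrophs prolactin (Prl), corticotrophs the precursor of corticotropin (Pomc), gonadotrophs luteinizing and follicle-stimulating hormone (Lhb, Fshb), and thyrotrophs thyrotropin (Tshb), while Cga encodes the alpha subunit that Lhb, Fshb and Tshb products share. The intermediate lobe, behind the anterior lobe, consists largely of melanotrophs that also make Pomc, and Pomc is made too by neurons of the arcuate nucleus of the hypothalamus. The pars tuberalis, a thin pituitary sheet attached to the median eminence, expresses Cga and Tshb.

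The DNA before the start sites of the hormone genes is shown as background. Any part of it in the differences between the classes was not tested. RefSeq sequence of build GRCm38.p6 was available for 6 of the 7 hormone genes, and the 3 shown differ in the motifs found. The 250 bases before each start were searched on both strands for TATNCAT (bound by POU1F1, the regulator of somatotroph, lactotroph and thyrotroph genes), TAATCC (PITX1), CAAGGTCA (NR5A1, the gonadotroph regulator) and TATAAA (the TATA box), and matches are in capitals. Prl lies at chr13:27057320-27057569 on the plus strand, Lhb at chr7:45420696-45420945 on the plus strand and Pomc at chr12:3954695-3954944 on the plus strand.
Prl: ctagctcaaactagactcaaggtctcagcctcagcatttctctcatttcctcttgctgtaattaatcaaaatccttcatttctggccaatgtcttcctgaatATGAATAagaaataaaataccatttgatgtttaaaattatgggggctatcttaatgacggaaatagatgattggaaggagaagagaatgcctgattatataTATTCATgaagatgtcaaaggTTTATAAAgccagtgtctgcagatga
Lhb: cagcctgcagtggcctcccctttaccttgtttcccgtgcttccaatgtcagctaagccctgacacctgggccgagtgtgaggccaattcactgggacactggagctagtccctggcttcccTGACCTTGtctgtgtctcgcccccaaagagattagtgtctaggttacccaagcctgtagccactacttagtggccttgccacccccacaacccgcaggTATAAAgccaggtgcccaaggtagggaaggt
Pomc: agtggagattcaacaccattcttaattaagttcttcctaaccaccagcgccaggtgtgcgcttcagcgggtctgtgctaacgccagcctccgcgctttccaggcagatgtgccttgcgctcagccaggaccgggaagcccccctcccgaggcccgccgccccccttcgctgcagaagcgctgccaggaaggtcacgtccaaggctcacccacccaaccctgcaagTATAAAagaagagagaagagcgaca
TATNCAT was found in 7.92% of 32851 promoter windows of the same length and, among the 6 hormone genes, only in Prl, where it occurred 2 times, at positions -148 and -47 from the start. CAAGGTCA was found in 1.33% of windows and among the 6 only in Lhb, at -129 in the reverse orientation. TAATCC, in 6.25% of windows, was in none of the 6. TATAAA, in 12.4% of windows, was in all 6, and in Prl a match of each strand overlapped within the last capital run. These are matches of letters and were not tested for binding.

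Gh ranged from 513 to 14329 FPKM in the high class, with a median of 5006 FPKM, from 10.1 to 415 FPKM between the limits and from 0 to 9.82 FPKM in the low class. The lowest high libraries were at 513 and 521 FPKM and the nearest below them at 415 and 391 FPKM. At the lower limit there was no comparable gap: the highest low libraries were at 9.82 and 9.76 FPKM and the next above at 10.07 and 10.97 FPKM. Gh was listed at 0 in 13 low libraries. The 7 hormone genes together made up 0.215% to 5.75% of all gene FPKM in the high class (median 2.49%) and at most 0.0246% in the low class.

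**Figure D1:**
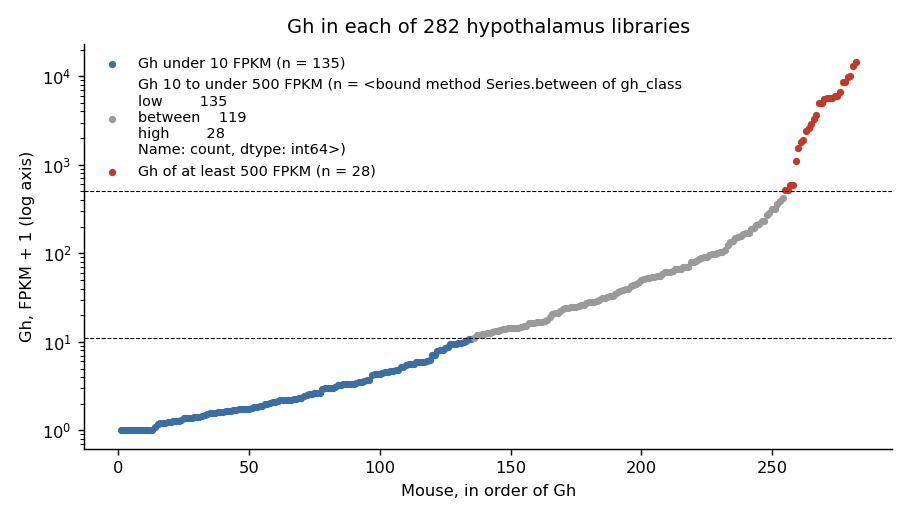
Gh in FPKM + 1 on a log axis for each of 282 libraries in rank order, coloured by class, with dashed lines at the limits of 10 and 500 FPKM. The 28 high libraries form the right end, from 513 to 14329 FPKM, and levels run without a break across the lower limit.

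The high libraries were scattered over strains rather than gathered in a few. They came from 23 of 99 strains, of which 18 had 1 high library, 5 had 2 and 0 had 3. By strain set, 6 of 47 AXB/BXA, 15 of 126 BXD, 1 of 16 BXH, 0 of 21 CXB and 6 of 71 classical inbred libraries were high. In SM/J, mice OB-1353 and OB-1354 had Gh of 8677 and 5718 FPKM while the third mouse of the strain, OB-1467, was at 1.598 FPKM. In LG/J, the 3 mice spread over all classes, with Gh of 2379, 60.5 and 4.65 FPKM. There were 14 strains with both classes, holding 17 high and 18 low libraries. Tests were made within these 14 strains on log2(FPKM + 1) with limma, with strain as a term, and p was adjusted over 14078 gene rows.

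FPKM carry no counts, so the depth behind a value is not known from them and no counting interval is given. The read number and the uniquely mapping share that the study lists for each library overlapped between the classes and served as read covariates in an alternative fit. Where a gene is said below to hold or lose its call with read covariates, that fit is meant, and replicates of a strain are separate mice. 1 low library, OB-547 of BXD-12/TyJ, stood apart, with 792801 FPKM summed over all genes against 322550 to 354829 in the other low libraries, and set the highest low value of several genes. It is in no strain of the tests, and values that rest on it are given with and without it. Among the between libraries, OB-422 of CXB-3/ByJ had the highest sum, 463433 FPKM against a class median of 336954. OB-422 took part in the fits over the between libraries given below, and no fit left it out alone. The deposited table holds only genes above 1 FPKM in at least 50 mice, more than the 28 high libraries, so a gene reaching that level in the high class alone could not be in it. Several genes that define pituitary cells, among them Pou1f1, Pitx1, Lhx3, Tbx19, Ghrhr and Gnrhr, had no named row and were not analysed here.

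All 6 other hormone genes were higher in the high class, and these were the largest named differences. Of the 14078 rows, 219 (1.56%) were higher and 15 (0.107%) were lower at an adjusted p of 0.05, 2146 had an unadjusted p under 0.05, and the median difference of all rows was -0.0058 log2 units. Prl ranged from 76.8 to 3830 FPKM in high libraries (median 1264.4) and from 0 to 24.2 FPKM in low libraries (median 0.759). The log2 difference within strains was 8.36 ± 0.46 (SE), 328-fold on the FPKM + 1 scale, with an adjusted p of 4.89e-11. No high library overlapped with a low one, and Prl was higher in 14 of 14 strains.

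Cga, the shared alpha subunit, ranged from 24.9 to 1257 FPKM in the high class (median 330) and from 0 to 15.4 FPKM in the low class (median 3.39). Its difference was 5.57 ± 0.40 log2 units, 47.7-fold, with an adjusted p of 5.75e-09. The classes did not overlap for Cga either, although in low libraries its median exceeded that of Gh itself (1.28 FPKM). In the 13 libraries with Gh listed at 0, Cga had a median of 3.18 FPKM and reached 10.9 FPKM, and Tshb had a median of 0.549 FPKM. Pomc there had a median of 18.3 FPKM, Lhb of 0.589 FPKM, Prl of 0.111 FPKM and Fshb of 0.0567 FPKM, and only Pomc and Lhb were above 0 in all 13.

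The gonadotropin beta subunits differed less than Prl, Cga and Pomc on the log2(FPKM + 1) scale. Their low class medians lay below 1 FPKM, so the added 1 shrinks their differences and this order depends on it. Fshb ranged from 1.53 to 121 FPKM in the high class (median 26.3) and from 0 to 1.15 FPKM in the low class (median 0.0875), without overlap, with a difference of 4.17 ± 0.32 log2 units and an adjusted p of 1.52e-08. Lhb ranged from 2.03 to 89.4 FPKM (median 36.4) against 0 to 2.49 FPKM (median 0.738), and 27 of 28 high libraries were above every low one. The difference was 3.77 ± 0.31 log2 units with an adjusted p of 6.00e-08.

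Tshb ranged from 1.97 to 79.2 FPKM in the high class (median 23.5) and from 0 to 3.83 FPKM in the low class (median 0.251). The difference was 3.56 ± 0.31 log2 units (adjusted p 1.69e-07), and 24 of 28 high libraries exceeded all low ones.

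Pomc ranged from 28.6 to 6851 FPKM in the high class (median 1365) and from 1.45 to 157 FPKM in the low class (median 20.2). Its difference was 5.45 ± 0.49 log2 units, with an adjusted p of 2.06e-07, and 23 of 28 high libraries lay above the highest low one, OB-547. Without OB-547 the highest low library was at 63.1 FPKM and 26 of 28 high libraries lay above it. Across all 28 high and 135 low libraries, 3 of 14078 rows (0.0213%) were free of overlap with the high class above, namely Prl, Cga and Fshb, and 0 were free of overlap with the high class below, as was so without OB-547.

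Within the high class the hormones did not keep 1 ratio. Across the 28 high libraries, Spearman's rho with Gh was 0.862 for Prl, 0.883 for Cga, 0.870 for Lhb, 0.811 for Tshb, 0.782 for Fshb and 0.512 for Pomc, values given as a description over libraries that share their normalization. The ratio of Prl to Gh spanned 5.78-fold from lowest to highest, and those of Cga, Lhb and Tshb 5.96-, 4.81- and 9.27-fold. The ratio of Fshb to Gh spanned 41.9-fold and that of Pomc to Gh 77.9-fold. Fshb and Pomc thus varied more against Gh than the other 4.

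The wide span of Fshb came with 1 strain. Both high libraries of BXD-15/TyJ, OB-1414 and OB-1415, had Fshb of only 3.89 and 4.35 FPKM, while their Prl was 1653 and 3830 FPKM and their Lhb 26.4 and 42.3 FPKM. Per 100 FPKM of Lhb they had 14.7 and 10.3 FPKM of Fshb, against 35.1 to 159 (median 74.3) in the other 26 high libraries. The pair of BXD50 stood at the other end for Cga, with 1257 and 1225 FPKM, the highest of all libraries, and Fshb of 110 and 121 FPKM. These strains were singled out after their values were seen, and the differences were not tested.

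Pomc parted from Gh in both directions. Among the 28 high libraries, 21 had Pomc of 500 FPKM or more and 5 were under 200 FPKM. OB-1013 of BXD75 had the highest Gh, 14329 FPKM, with Pomc of 402 FPKM, whereas OB-318 of LG/J had Gh of 2379 FPKM with Pomc of 5194 FPKM. Between the limits, 8 of 119 libraries reached 500 FPKM of Pomc and 5 exceeded the high class median, while 0 of 135 low libraries reached 500 FPKM.

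The between library with the most Pomc, OB-1197 of BXD85, had 6347 FPKM beside Gh of only 19.96 FPKM, Prl of 6.85 FPKM and Cga of 7.90 FPKM. OB-312 of BXA-7/PgnJ had Pomc of 3334 FPKM with Gh of 79.2 FPKM, and OB-1262 of BXD73 had 1575 FPKM with Gh of 16.03 FPKM. In these 3 libraries Pomc was at the level of the high class while Gh, Prl and Cga were not. In bulk tissue, fewer cells of a type and less RNA per cell cannot be told apart.

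**Figure D2:**
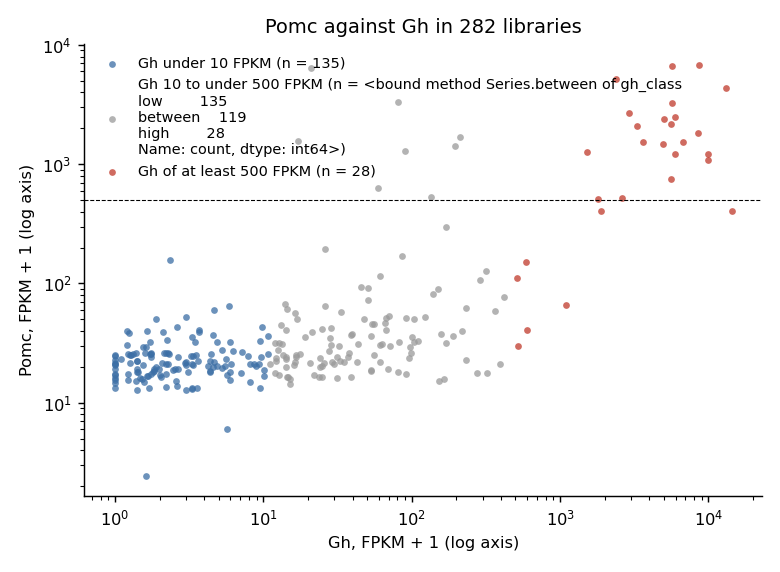
Pomc against Gh in FPKM + 1 on log axes for 282 libraries, coloured by Gh class, with a dashed line at 500 FPKM of Pomc. Above the line lie 21 high libraries and 8 grey between libraries, of which the topmost, at 6347 FPKM, has Gh of 19.96 FPKM.

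The 119 between libraries took no part in the contrast of the classes and gave a second view of the same genes. In a limma fit of log2(FPKM + 1) on log2(Gh FPKM + 1) over these libraries, 4 of 14078 rows (0.0284%) rose with Gh, 0 fell, and 362 had an unadjusted p under 0.05 in either direction. The 4 were Prl, Cga, Fshb and Lhb, with slopes per log2 unit of Gh of 0.81 ± 0.06, 0.33 ± 0.06, 0.20 ± 0.03 and 0.16 ± 0.03 and adjusted p of 7.12e-24, 0.000478, 9.35e-07 and 0.000838. Pomc (slope 0.29 ± 0.10) and Tshb (0.11 ± 0.05) did not pass, each with an adjusted p of 0.999998. Below the upper limit 4 of the 6 hormone genes thus rose with Gh, of which Prl and Fshb passed without each of the replicate numbers 1, 2 and 3. Cga was lost without number 1 or 3 (adjusted p 0.472 and 0.463) and Lhb without number 1 (adjusted p 0.99997).

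Because Pomc varied between the limits largely apart from Gh, the same libraries were fitted with log2(Pomc FPKM + 1) beside the Gh term, a comparison added after the values were seen. Of 14077 rows, 10 (0.071%) rose and 3 (0.0213%) fell with Pomc. Among those that rose, Scn7a, a sodium channel alpha subunit listed here for the neural lobe, had a slope of 0.070 ± 0.010 (adjusted p 4.50e-06), and Drd2, the dopamine receptor of lactotrophs and melanotrophs, of 0.078 ± 0.013 (adjusted p 9.40e-05). Six6, a transcription factor of the pituitary and hypothalamic primordium, followed with 0.068 ± 0.011 (adjusted p 9.40e-05), and Mest, Rcn3, Creb3l2, Trp53i11 and Lck were also among the 10.

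Of these 10 rows, 8 (80.0%) were also higher in the high class, where they made up 3.65% of the 219. Without OB-1197, 5 rows rose and 1 fell. In OB-1197, Drd2 was at 15.4 FPKM, against a between-class median of 8.07 FPKM. Prl, Cga, Fshb, Lhb and Tshb did not pass for Pomc beside the Gh term, with adjusted p from 0.459 to 0.810.

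The calls depended in part on single libraries or strains. Each of the 35 libraries was left out in turn. Where it was the only library of its class in its strain, the whole strain left the fit with it. The fits gave between 140 higher rows (without OB-1467, the only low mouse of SM/J, and so without SM/J) and 1.21 times the 219. Of the 219, 129 were called in every such fit. The 6 hormone genes held in all 35 fits. With the read covariates added to the fit, 110 rows were higher, of which 105 were among the 219, and all 6 hormone genes held.

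Beyond the hormones, 213 rows were higher in the high class, with a median of 0.32 log2 units and a range of 0.10 to 1.25. Of all 219, 10 exceeded 1 log2 unit, 31 lay from 0.5 to 1 and 178 at or below 0.5, 50 had no gene name and 7 shared a locus of several names. Across the 28 high libraries, 210 of the 219 (95.9%) had a positive rho with Gh, with a median of 0.583, against 51.1% of all rows with a median of 0.0055.

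Large differences after the hormones were in genes of varied function. Rcn3, a calcium-binding protein of the endoplasmic reticulum, was at 2.74 to 24.0 FPKM in high libraries (median 10.2) and 0.853 to 9.44 FPKM in low ones (median 2.60, highest 6.08 without OB-547), a difference of 1.21 ± 0.19 log2 units (adjusted p 0.00073). Txnip, which binds thioredoxin, was at 8.98 to 24.5 FPKM (median 15.1) against 3.85 to 20.1 FPKM (median 6.94, highest 15.07 without OB-547), a difference of 0.90 ± 0.12 (adjusted p 0.000143) seen in 14 of 14 strains. For both genes the ranges of high and low libraries overlapped.

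Fam114a1, 5330417C22Rik, Ccnd2 and Rbpms followed, with log2 differences of 0.84, 0.81, 0.73 and 0.68, of which only that of Rbpms lost its call with read covariates (adjusted p 0.113). Ccnd2, which encodes cyclin D2 of the cell cycle, was at 3.36 to 14.1 FPKM in high libraries (median 8.77) and 2.48 to 6.10 FPKM in low ones (median 4.003). Dlk1, an imprinted gene for a membrane protein related to Notch ligands, was at 51.8 to 154 FPKM (median 82.0) against 29.3 to 86.2 FPKM (median 45.5), a difference of 0.68 ± 0.12 (adjusted p 0.00365). Mest, another imprinted gene, and the calcium-binding protein gene S100a11 rose by 0.66 and 0.64 log2 units, the call of Mest being lost with read covariates (adjusted p 0.0739).

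Genes that hormone-secreting cells use to pack and process their products were partly higher. Of 14 granule and processing genes, 4 (28.6%) rose and 0 fell, against 1.56% of all rows that rose, with a list median of 0.14 against -0.0058 for all rows. Chga, a granule protein, was at 108.1 to 334 FPKM in high libraries (median 175.5) and 91.3 to 263.8 FPKM in low ones (median 116), a difference of 0.51 ± 0.08 (adjusted p 0.000993). Without OB-547 the highest low level of Chga was 148 FPKM, which 21 of 28 high libraries exceeded, against 3 with it. The locus of Chgb, shared with 1110034G24Rik, had a difference of 0.56 ± 0.07 (adjusted p 0.000136) and the highest rho with Gh among the genes named here, 0.937. Scg2 rose by 0.41 ± 0.08 and Pcsk1, the convertase that cleaves Pomc, by 0.38 ± 0.06, while Pcsk2 (0.17 ± 0.06, adjusted p 0.187) and Cpe (-0.0068 ± 0.029, adjusted p 0.942) did not pass.

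Of 20 pituitary transcription factors, 7 had a row, and only Six6 passed, at 0.849 to 5.08 FPKM in high libraries (median 2.41) and 0.41 to 2.25 FPKM in low ones (median 1.07), a difference of 0.59 ± 0.10 (adjusted p 0.00268). Six6 was also on the list of hypothalamic transcription factors, where it alone passed among 11 with a row. Of 16 receptors of pituitary endocrine cells, 10 had a row and 2 rose. Drd2 had a median of 12.6 against 8.08 FPKM, a difference of 0.48 ± 0.11 (adjusted p 0.0285), and the estrogen receptor Esr1 3.76 against 2.46 FPKM, a difference of 0.38 ± 0.09 (adjusted p 0.0213). Both genes are also expressed in the hypothalamus, and both ranges overlapped. Both calls were lost with read covariates (adjusted p 0.151 and 0.104). They were also lost in 6 and 4 of the 35 fits that left out 1 library, some with its whole strain.

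None of the 5 pituitary epithelium and stem cell genes with a row passed. A list of genes of growth hormone and prolactin signalling held targets beside the receptor genes Ghr and Prlr and the transducer gene Stat5b. Of its 11 genes with a row, 2 (18.2%) rose, against 1.56% of all rows. They were the IGF-binding proteins Igfbp5 (0.34 ± 0.07, adjusted p 0.00898) and Igfbp3 (0.32 ± 0.06, adjusted p 0.00553), and the first lost its call with read covariates (adjusted p 0.0874). Igf1, Socs1, Socs2, Socs3, Cish, Ghr, Prlr, Stat5b and Bcl6 did not pass.

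A list of 65 secretory pathway genes was drawn up after the values were seen, so its count is a description. Of its members, 22 (33.8%) were higher and 0 lower, against 1.56% of all rows that were higher, with a list median of 0.12 and 61 above 0, against 6623 of all 14078 rows. They covered translocation into the endoplasmic reticulum (Sec61b, Tram1, Ssr3, Serp1), glycosylation (Ddost, Ostc), folding (Pdia3, Pdia4, P4hb, Fkbp9, Fkbp11, Fkbp14, Dnajc3), transport (Kdelr2, Lman1, Lman2, Copb1, Copb2, Copz2) and the stress sensor Ern1. Creb3l2, a membrane-bound transcription factor of this pathway, had the largest difference of the list, 0.58 ± 0.10 (adjusted p 0.00168), with medians of 6.39 and 3.71 FPKM. The chaperone Hspa5 was on the list and did not pass, and of the 22 calls 6 held with read covariates. Ssr3, Fkbp11, Fkbp14 and Dnajc3 lost their call in 24, 22, 22 and 12 of the 35 fits that left out 1 library, some with its whole strain.

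Genes of antigen presentation, a list also drawn up after the values were seen, were higher in 7 of 14 rows (against 1.56% of all rows), and all 14 differences were above 0, against 6623 of all 14078. Cd74, the invariant chain of class II molecules, was at 3.17 to 21.9 FPKM in high libraries (median 8.62) and 1.19 to 14.9 FPKM in low ones (median 3.13), a difference of 1.10 ± 0.14 (adjusted p 6.78e-05) seen in 14 of 14 strains. The class II genes H2-Aa, H2-Eb1 and H2-Ab1 rose by 0.88, 0.70 and 0.68 log2 units, and the class I genes H2-K1 and B2m by 0.35 and 0.27. With read covariates 4 of the 7 calls held, those of Cd74 and the class II genes. The rho of Cd74 with Gh in the high class was 0.332, below that of the hormones. Of the 6 microglia markers, 0 passed, and all 6 differences were below 0, with marker sums of 129 to 178 FPKM in high and 118 to 506.1 FPKM in low libraries (to 211 without OB-547). The Aif1 row in these sums is a locus shared with Lst1 and Prrc2a. Its low class median was 99.0 FPKM, against 153 FPKM for the sum, so the sums do not measure microglia alone.

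**Figure D3:**
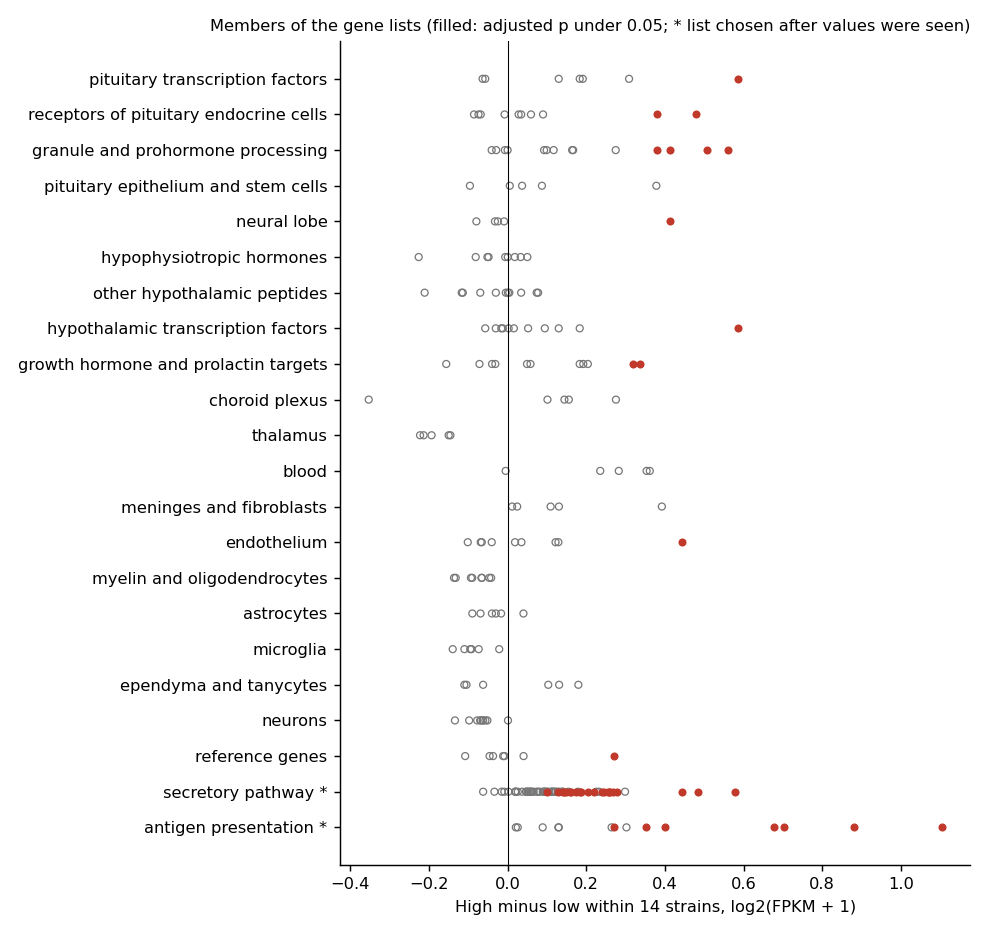
Difference of high minus low libraries within 14 strains, in log2(FPKM + 1) units, for members of the gene lists other than the hormones, 1 point per gene row, filled where the adjusted p was under 0.05. Filled points lie at the right in the granule, receptor, secretory and antigen presentation lists, and 0 members of the neuron, myelin, astrocyte, microglia and thalamus lists are filled.

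No difference was called among hypothalamic hormone genes. Of 9 hypophysiotropic genes, whose products control the pituitary, and of 11 other hypothalamic peptides, 0 passed in either direction. Ghrh had medians of 9.01 and 8.41 FPKM and a difference of -0.0060 ± 0.14 log2 units, Sst 153 and 162 FPKM with -0.081 ± 0.065, and Trh 41.2 and 44.0 FPKM with -0.048 ± 0.087. A difference that misses the threshold does not show equality, and these standard errors limit what could be seen. Avp, whose nerve endings fill the neural lobe, was at medians of 215 and 220 FPKM. Of 5 neural lobe genes with a row only Scn7a passed, at 1.73 to 4.62 FPKM against 0.935 to 3.98 FPKM, a difference of 0.41 ± 0.09 (adjusted p 0.0106, and 0.0737 with read covariates).

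Markers of other tissues and cell types were listed beside these. None of 5 choroid plexus, 5 blood, 5 meningeal, 8 myelin, 6 astrocyte, 6 ependymal and 10 neuron genes passed. Of these, 4 of 5 blood (list median 0.28), 5 of 5 meningeal (0.11), 4 of 5 choroid plexus (0.14), 0 of 8 myelin (-0.078), 1 of 6 astrocyte (-0.035), 3 of 6 ependymal (0.021) and 1 of 10 neuron genes (-0.066) had a positive difference. The summed level of the blood genes was 82.2 to 387 FPKM in high and 35.9 to 580.3 FPKM in low libraries (to 326 without OB-547), and that of the meningeal genes 155 to 1233 and 107.1 to 1130 FPKM. The 5 thalamus genes all had negative differences (-0.15 to -0.22) and none passed, with summed levels of 95.6 to 244 FPKM in high and 17.4 to 381 FPKM in low libraries. Of 9 endothelial genes, 1 (11.1%, against 1.56% of all rows) rose. This was Plvap, a marker of fenestrated vessels, with a difference of 0.44 ± 0.08 (adjusted p 0.00492). The sum of the list was 97.2 to 130 FPKM in the high and 86.2 to 166 FPKM in the low class (to 135 without OB-547). The part of these tissues in the differences above was not tested.

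The 15 lower rows were small in difference, from 0.11 to 0.27 log2 units below the low class. Among them were Gm16183 (-0.25), Sharpin (-0.24 ± 0.06), Znrf1, Cux2, Pnkd, Cdh20, Trpm2, Ppfia4 and Fam135b. Gm16183 kept its call in all 35 fits that left out a library, some with its whole strain. Cdh20, Fam135b, Sharpin and Ppfia4 lost theirs in 30, 29, 25 and 21 of these fits. With read covariates 1 of the 15 lower rows, Cdh20, was still called.

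The high and low mice outside these 14 strains, 11 high and 116 low, had not entered the tests and were compared with no strain term, so that strain and class are mixed there. In them 482 of 14078 rows (3.42%) were higher and 100 (0.71%) lower. Of the 219 higher rows, 160 (73.1%) were higher again, 33.2% of the 482, and 215 had a positive difference, against 48.7% of all rows. Without OB-547, 4.23% of rows were higher and 1.36% lower there, and 173 of the 219 were higher again. Of the 15 lower rows, 1 was lower again, 12 had a negative difference, and Sharpin, Znrf1 and Gm16183 had a positive one.

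**Figure D4:**
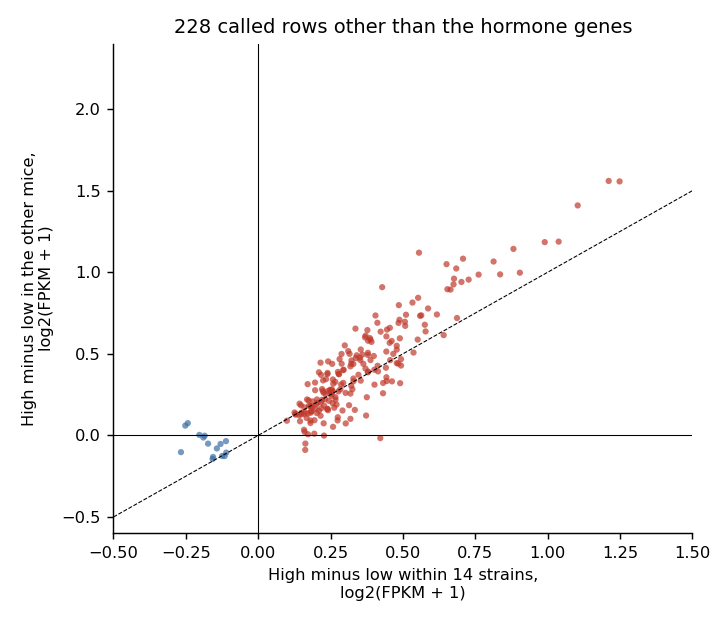
Difference of high minus low libraries, in log2(FPKM + 1) units, within the 14 strains (x axis) and in the other 11 high and 116 low libraries (y axis), for the 228 rows called other than hormone genes, red where higher and blue where lower within strains, with a dashed line of equality. Nearly all red points lie above 0 on both axes, and 3 of the 15 blue points lie above 0 on the y axis.

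At the level of transcripts, 41 of 51022 rows (0.0804%) were higher and 1 (0.00196%) was lower. Of the 42, 17 belonged to hormone genes, 17 to other loci whose gene row had passed, and 8 to loci whose gene row had not. The annotated Prl transcript rose by 6.01 ± 0.33 log2 units and that of Pomc by 5.45 ± 0.50. All 7 Prl transcript rows were higher, and since their shares of the reads are estimated by the quantification, levels of single Prl forms are uncertain.

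At the 8 loci 1 transcript passed while the row of the whole gene did not, which does not show that the gene row was equal. Ruvbl2, a helicase of chromatin complexes, had 1 transcript at 1.69 to 15.3 FPKM in high libraries (median 6.13) and 9.63 to 28.3 FPKM in low ones (median 12.5), a difference of -0.90 ± 0.16 (adjusted p 0.0238), while the gene row differed by 0.038 (adjusted p 0.755). On chromosome 7 of mm10 the Lhb locus ends at 45421788 on the plus strand. This Ruvbl2 transcript runs on the minus strand towards it and ends at 45421898, so the listed spans do not overlap. The unstranded libraries do not tell reads of the strands apart, and any part of Lhb reads in the difference was not tested. A Gnas transcript, from the imprinted gene of the stimulatory G protein alpha subunit, was at 31.2 to 72.2 FPKM (median 49.4) against 19.4 to 55.6 FPKM (median 32.7), a difference of 0.57 ± 0.11 (adjusted p 0.0316), while the Gnas gene row differed by 0.12 ± 0.04 (adjusted p 0.128). Transcripts of Hsd11b1, Acot7, Tmc4, Zmiz1, Morf4l2 and Araf rose by 0.40 to 1.35 log2 units.

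The share of the variance between mice that lay between strains was moderate for the hormones. Over 281 mice of 99 strains it was 0.190 for Prl, 0.221 for Cga, 0.157 for Pomc, 0.153 for Fshb, 0.148 for Lhb and 0.244 for Tshb, against a median of 0.222 over all gene rows. Without the 28 high mice it was 0.259, 0.370, 0.214, 0.223, 0.161 and 0.634 in the same order, against a median of 0.211. Tshb thus had the largest move. Gh itself had shares of 0.275 and 0.322.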

How the data were processed

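Per the labels and the study's methods, the authors prepared unstranded mRNA libraries from the hypothalamus of each mouse, used STAR 2.3.1 to map the paired reads on mm10, built transcript models for each strain in Cufflinks 2.2.0, joined these to known annotation, and derived expression for each library by Cuffquant and Cuffnorm 2.2.1 at default settings. The deposited values are FPKM per gene and transcript row, scaled between libraries by the authors and held only for features above 0 in at least 100 and above 1 in at least 50 mice. Reads that map to several places were kept by the authors, which can blur close paralogs such as H2 genes. Of 14079 gene rows, 12524 had an entry in the deposited assembly, from which names were taken, 1555 had none and 639 loci carried several names. Read covariates (read number and uniquely mapping share per library) come from the study's sample list, and their values are not reported here. All columns of values were used.

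Classes were set on the Gh row at 500 and 10 FPKM. Differences were fitted with limma 3.58.1 in R 4.3.3 on log2(FPKM + 1), with strain as a fixed term over the 35 libraries of 14 strains that hold both classes (20 residual degrees of freedom), and p was adjusted by Benjamini-Hochberg over all rows with a threshold of 0.05. Slopes on Gh and on Pomc were fitted over 119 libraries with no strain term. The script was tested on simulated data. Genes are named if they are on a list, among the 20 largest higher or 10 largest lower named rows, or, for transcripts, among the 10 largest at loci whose gene row did not pass; the Pomc fit, all its rows, and rows at strains or libraries singled out were named after their values were seen. The members and lists were chosen with earlier results of these data known. Tables were made with Python 3.11.15, pandas 2.3.3 and numpy 2.4.6, and promoter sequence is from RefSeq, GRCm38.p6. Results for some genes are not reported here. Alternatives covered the pseudocount, low values, scaling, strain, read covariates, Gh limits and left-out libraries.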

Additional observations from a re-analysis of the deposited data

How the results depend on the processing

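Within the 14 strains 219 rows were higher and 15 lower. All 219 kept a positive difference, where tested, under every alternative of pseudocount, filter, scaling, strain term, read covariates, Gh limits and left-out library run, except that 4 turned negative in the mice outside these strains. Quantile normalization gave 33 lower rows. Using all 28 high and 134 low mice of known strain gave 818 higher and 306 lower rows with no strain term (964 and 466 when OB-547 was also left out) and 761 and 246 with strain as a random block. Read covariates gave 110 and 6, Gh limits of 1000 and 5 FPKM 144 higher, limits of 200 and 20 FPKM 31 lower, a numeric Gh term over all 281 mice 413 and 78, and the mice outside the 14 strains 482 and 100 (without OB-547, 173 of the 219 higher and 1 of the 15 lower rows were called again). In those last, Sstr3 (0.24) and Gad2 (-0.21), uncalled within strains, were called with the opposite sign, and Gm16183 (0.060), Sharpin (0.075) and Znrf1 (0.0031) changed sign, also without OB-547 (0.058, 0.093 and 0.0041). The cause of these shifts was not tested, except that the settings with no strain term or a random block over all strains, and that with numeric Gh, hold more libraries.

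Leaving out replicate 1, 2 or 3 of every strain left 5, 6 and 10 libraries in each class, with 7 to 14 higher rows. Leaving out a single library also took out its strain where no other library of its class remained there. In these fits 139 to 215 of the 219 higher rows were called again. Over both kinds of fit, lower rows ranged from 0 to 26. Without replicate 2, Pomc did not pass (adjusted p 0.185), and the other 5 hormone genes held each time. Leaving out OB-1467, and with it SM/J, gave 140 higher and 4 lower. OB-1147 gave 6 lower, OB-264 or OB-265 3, OB-109 or OB-110 6, OB-494 7 and OB-883 9. OB-505 gave 23 lower, OB-585 or OB-586 25, and OB-365, OB-366 or OB-879 26. Apart from OB-505, each of these was the only library of its class in its strain, so the whole strain left the fit. The slope on Gh gave 2 to 4 higher rows without 1 replicate number, losing Cga and Lhb without number 1 and Cga without number 3. Transcripts numbered 269 higher and 21 lower with no strain term, 315 and 57 when OB-547 was also left out, and 0 to 11 higher and 0 to 1 lower without a replicate number. The slope on Pomc gave 5 to 12 higher and 0 to 4 lower rows when 1 of the 8 libraries with most Pomc was left out, and 1 lower with strain as a random block or with read covariates. The replicate numbers follow accession order and pair no mice between classes, so mice were not paired by them. The matching of high with low mice is by strain, a term of the main comparison.

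FPKM carry no counts, so low levels such as Fshb in the low class cannot be given a counting error, and a fold against them depends on the added 1. Cuffnorm scales each library by the authors' default setting, and the 7 hormone genes held up to 5.75% of all gene FPKM.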
